A study of Mus musculus with 16 samples.

Results

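The genes described here are 49 components of the machinery that moves newly made secretory proteins from the endoplasmic reticulum (ER) to the Golgi and retrieves escaped proteins and membrane in the other direction. They were taken by symbol from a list of this machinery drawn up with earlier results of these data known, and all 49 were found among the 46878 genes used in the mouse intestinal epithelium tables. By role they are 9 COPII coat genes, 7 genes of the COPII GTPase, its exchange factor and ER exit sites, 9 COPI coatomer subunits, 3 genes of the Arf GTPases and their exchange factor, 7 cargo and retrieval receptors, 6 p24 proteins, 4 Golgi tethers and stacking factors and 4 SNAREs.

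COPII is the coat of vesicles and tubules that leave the ER. The GTPase Sar1 is loaded by the exchange factor Preb at exit sites organised by Sec16, recruits the inner coat of Sec23 and Sec24, which gathers cargo, and then the outer cage of Sec13 and Sec31. COPI, recruited to Golgi membranes by Arf GTPases, carries proteins back towards the ER, among them ER residents caught by KDEL receptors. Goblet cells secrete MUC2, the gel-forming mucin of intestinal mucus and a very large glycoprotein that has to pass through this route.

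The goblet cells were sorted as mCherry-positive cells of the distal colon (DC) and of section 8 of the small intestine (Si8), and each was set against the mCherry-negative epithelial cells of the same region, called other cells here. The labels name the negative cells colonocytes in DC and enterocytes in Si8, but the sort took every living mCherry-negative cell. All 4 groups came from RedMUC298trTg mice of 6 to 8 weeks, whose transgene, an mCherry-tagged MUC2, makes mucus-producing cells red, so the controls carried the transgene too, and there were 4 bulk RNA libraries in each group. The labels do not say which libraries came from separate animals, so p-values measure only the spread between libraries, which may be technical. Lysates of goblet cells went over MinElute columns and those of other cells over Mini columns, so the kind of column cannot be told apart from the kind of cell. The 2 regions came in separate count tables, and the table of DC had 0 counts in every mitochondrially encoded gene, so region and count table cannot be told apart either.

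Libraries held 11915081 to 18530171 counts in DC goblet cells and 14886439 to 17693513 in DC other cells, and 37439139 to 40533313 counts in Si8 goblet cells and 30839377 to 41075589 in Si8 other cells. Levels below are CPM, counts relative to the TMM-scaled library total, in the order of the libraries, and changes are log2 fold changes ± SE of goblet over other cells, called where edgeR's quasi-likelihood F test, adjusted over 16001 genes, gave p under 0.05. The sort markers went with the labels: Muc2, Fcgbp, Clca1, Tff3, Zg16 and Spdef summed to 34200 to 38700 CPM in DC goblet and 232 to 293 CPM in DC other libraries, and to 121000 to 282000 CPM in Si8 goblet and 276 to 707 CPM in Si8 other libraries. Paneth cell markers, of which 6 of 7 were in the tables, moved with the goblet sort of Si8: they summed to 12400 to 33000 CPM in Si8 goblet and 673 to 1800 CPM in Si8 other libraries. In DC they summed to 21.8 to 25.2 CPM in goblet and 0.526 to 1.13 CPM in other libraries, with the defensins Defa24 and Defa17 at 0 in all of them. Most of the DC goblet sum was Ang4, with 302 to 368 counts a library, beside 25 to 66 of Itln1, 7 to 53 of Lyz1 and 9 to 16 of Mmp7. Absorptive cell markers, 7 genes, summed to 196 to 262 CPM in DC goblet against 5080 to 5700 CPM in DC other libraries, and to 1180 to 2250 CPM in Si8 goblet against 5320 to 11500 CPM in Si8 other libraries. Most of the Si8 goblet sum was Krt20, with 31698 to 51638 counts a library. Alpi had 695 to 1291 counts in Si8 goblet against 8506 to 19258 in Si8 other libraries, and Apoa1 4269 to 9055 against 77940 to 161265. Fabp2 (7577 to 11507 against 26440 to 68380) and Slc26a3 (1444 to 1779 against 4413 to 5855) differed less. Enteroendocrine markers, 6 genes, summed to 64.3 to 90.6 CPM in DC goblet against 417 to 549 CPM in DC other libraries, and to 76.2 to 144 CPM in Si8 goblet against 305 to 425 CPM in Si8 other libraries. B and plasma cell markers, 5 genes, summed to 107 to 119 CPM in DC goblet against 294 to 378 CPM in DC other libraries, and to 103 to 128 CPM in Si8 goblet against 262 to 335 CPM in Si8 other libraries, but most of each sum was Sdc1, which epithelial cells also express. Jchain, a more specific plasma cell gene, had 0 to 2 counts in DC goblet against 5 to 26 in DC other libraries, and 48 to 79 counts in Si8 goblet against 833 to 2196 in Si8 other libraries. The part of these other cells in the results was not tested. In bulk samples a change in the share of cells of a type and a change in RNA per cell cannot be told apart.

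Most of the transport machinery was higher in goblet cells, and more of it in the colon than in the small intestine. In DC, 43 of the 49 genes were higher in goblet than in other cells, beside 27.8% of all genes tested, and 2 were lower, beside 27.9%. In Si8, 33 were higher, beside 33.1%, and 9 were lower, beside 31.8%. The median log2 fold change of the 49 was 0.90 in DC and 0.37 in Si8, where that of all genes was 0.03 in both. Changes of at least 1 on the log2 scale were found upward for 21 of the 49 in DC, beside 9.16% of all genes, and for 11 in Si8, beside 8.92%. Downward there were 0 in DC, beside 13.5%, and 1 in Si8, Sec23a, beside 14.5%. The 49 genes summed to 8344 to 8617 CPM in DC goblet libraries and 4147 to 4535 CPM in DC other libraries. In Si8 they summed to 8245 to 9391 CPM in goblet and 6658 to 6997 CPM in other libraries.

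Taken across both regions, 33 of the 49 genes were higher in goblet cells of each, a pattern that 18.6% of all genes tested showed. 2 genes, Sec23a and Sec24b, were lower in both, beside 18.2%. 6 genes, Gbf1, Mcfd2, Sec16b, Sec24a, Sec24c and Tfg, were higher in DC goblet cells and lower in Si8 goblet cells than in the other cells of their region, beside 2.24%. 4 genes, Arf1, Lman2, Sec31a and Tmed7, were higher in DC and not called in Si8, and Sar1b was not called in DC and lower in Si8. Copg2, Golga2 and Sec31b were called in neither region.

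**Figure D1:**
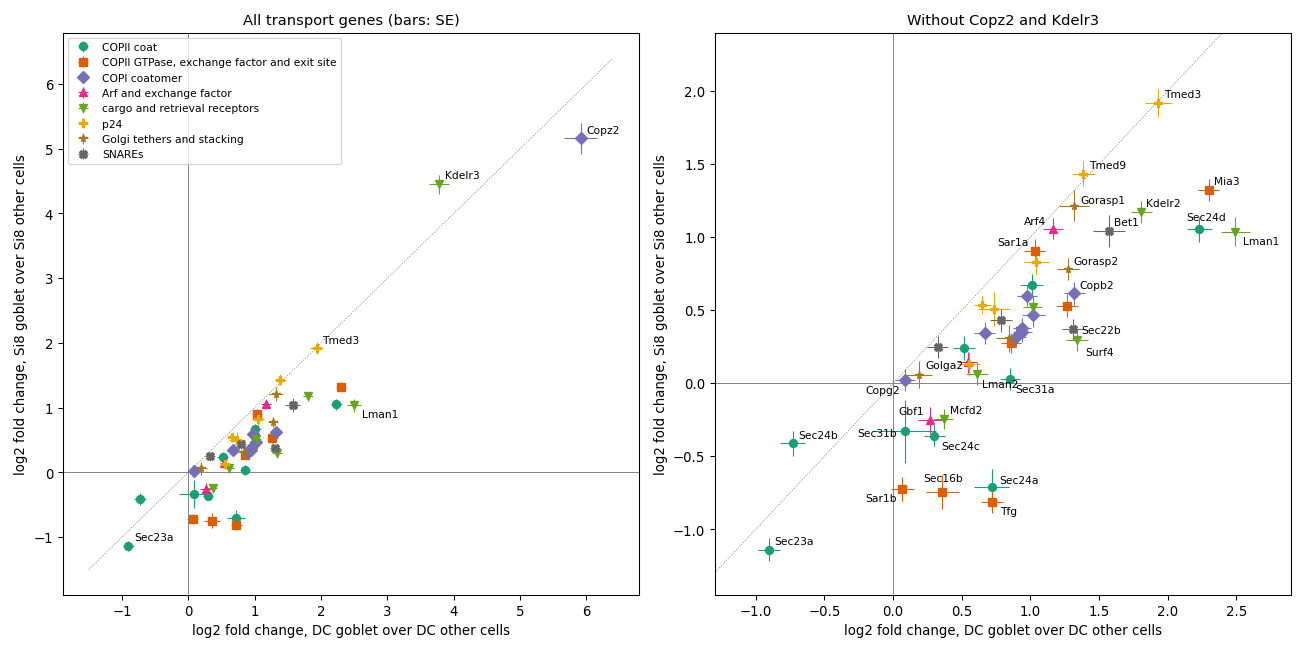
Log2 fold change of goblet over other cells in DC (x axis) and in Si8 (y axis) for the 49 genes, with bars for SE and marks by role; the dotted line marks equal changes, and the right panel leaves out Copz2 and Kdelr3. Most genes lie right of 0 and under the dotted line, Copz2 and Kdelr3 stand far up in both regions, and Sec23a and Sec24b are below 0 on both axes.

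In the inner COPII coat, paralogues moved apart. Sec23 has the paralogues Sec23a and Sec23b, and they went opposite ways. Sec23a had 58.1, 72.5, 71.8 and 68.1 CPM in DC goblet cells, against 123, 125, 134 and 125 CPM in DC other cells. It had 111, 102, 117 and 105 CPM in Si8 goblet cells, against 253, 212, 234 and 258 CPM in Si8 other cells. Every goblet library was below every library of other cells in its region, with log2 fold changes of -0.90 ± 0.08 (adjusted p = 1.7e-08) in DC and -1.14 ± 0.08 (adjusted p = 4.6e-10) in Si8. Sec23b had 111, 98.6, 106 and 97.7 CPM in DC goblet cells, against 54.3, 56.4, 48.2 and 46.7 CPM in DC other cells. It had 168, 149, 181 and 167 CPM in Si8 goblet cells, against 116, 100.2, 102 and 100.2 CPM in Si8 other cells. Sec23b was higher in every goblet library of both regions, with changes of 1.01 ± 0.08 (adjusted p = 3.7e-09) in DC and 0.67 ± 0.08 (adjusted p = 7e-07) in Si8. The log2 ratio of Sec23a to Sec23b within a library, with 0.5 CPM added to each, averaged -0.61 in DC goblet and 1.30 in DC other cells, and -0.61 in Si8 goblet and 1.19 in Si8 other cells. The ratio was thus 3.75-fold lower in DC goblet cells and 3.48-fold lower in Si8 goblet cells, without overlap (exact permutation p = 0.0286 in each, two-sided and the smallest that 4 against 4 libraries can give). Between the goblet cells of the 2 regions the ratio differed by -0.002 (exact permutation p = 1), and the groups overlapped. Per kilobase of exon, Sec23b made up 54.1% ± 3.73 of the pair in DC goblet and 23.8% ± 2.08 in DC other cells, and 54.0% ± 0.856 in Si8 goblet and 25.2% ± 1.60 in Si8 other cells (SD, n = 4 libraries). With the longest transcript as the length, these shares of Sec23b were 66.8% in DC goblet, 34.9% in DC other, 66.8% in Si8 goblet and 36.6% in Si8 other cells.

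Sec24, the cargo-binding subunit, has 4 paralogues, and each had a pattern of its own. Sec24d had 147, 133, 142 and 148 CPM in DC goblet cells, against 33.5, 31.3, 29.4 and 27.1 CPM in DC other cells. It had 152, 159.5, 193 and 165 CPM in Si8 goblet cells, against 75.3, 76.9, 83.6 and 87.2 CPM in Si8 other cells. Sec24d was the COPII coat gene with the largest rise, 2.23 ± 0.09 (adjusted p = 8.1e-14) in DC and 1.05 ± 0.08 (adjusted p = 2e-09) in Si8, with no overlap in either region. Sec24c had 148, 127, 129.7 and 149.6 CPM in DC goblet cells, against 119, 114, 107 and 110.0 CPM in DC other cells. It had 193, 189.6, 206 and 177 CPM in Si8 goblet cells, against 244, 232, 254 and 253 CPM in Si8 other cells. Sec24c was higher in every goblet library of DC (0.30 ± 0.07, adjusted p = 0.00189) and lower in every goblet library of Si8 (-0.36 ± 0.07, adjusted p = 0.00029).

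Sec24a had 63.2, 94.5, 88.5 and 86.98 CPM in DC goblet cells, against 53.4, 43.97, 53.5 and 51.5 CPM in DC other cells. It had 94.9, 114, 127 and 115 CPM in Si8 goblet cells, against 169.9, 154, 193 and 223 CPM in Si8 other cells. Its groups did not overlap in either region, yet it rose in DC (0.72 ± 0.13, adjusted p = 0.0001) and fell in Si8 (-0.71 ± 0.13, adjusted p = 6.9e-05). Sec24b had 21.5, 26.03, 21.01 and 22.03 CPM in DC goblet cells, against 39.9, 34.9, 36.1 and 39.03 CPM in DC other cells. It had 31.7, 36.4, 37.04 and 36.8 CPM in Si8 goblet cells, against 44.5, 44.1, 46.9 and 53.4 CPM in Si8 other cells. Sec24b was lower in every goblet library of both regions, with changes of -0.73 ± 0.09 (adjusted p = 1e-06) in DC and -0.41 ± 0.09 (adjusted p = 0.00035) in Si8. Per kilobase of exon, Sec24d was 40.2% ± 1.17 of the 4 paralogues in DC goblet and 14.3% ± 0.912 in DC other cells, and 36.0% ± 1.33 in Si8 goblet and 16.6% ± 0.447 in Si8 other cells. Sec24b was 6.72% ± 0.823 in DC goblet and 18.5% ± 0.846 in DC other cells, and 8.04% ± 0.514 in Si8 goblet and 10.2% ± 0.349 in Si8 other cells. The log2 ratio of Sec24d to Sec24c was higher by 1.92 in DC goblet cells and by 1.40 in Si8 goblet cells than in other cells, without overlap (exact permutation p = 0.0286 in each).

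Of the outer cage, Sec31a was called in DC and Sec31b, its minor paralogue, in neither region. Sec31a lay between 220.1 and 242 CPM in DC goblet libraries and between 118 and 136 CPM in DC other libraries, a change of 0.85 ± 0.08 (adjusted p = 1e-08). In Si8 it lay between 254 and 298 CPM in Si8 goblet libraries and between 253 and 296 CPM in Si8 other libraries, so the groups overlapped (0.03 ± 0.07, adjusted p = 0.729). Sec13, which pairs with Sec31, lay between 105 and 123 CPM in DC goblet libraries and between 68.5 and 83.5 CPM in DC other libraries, a rise of 0.52 ± 0.08 (adjusted p = 2.3e-05). In Si8 Sec13 lay between 152 and 183 CPM in Si8 goblet libraries and between 132 and 156 CPM in Si8 other libraries, overlapping ranges with a rise of 0.24 ± 0.08 (adjusted p = 0.0139) that was lost without Si8 other replicate 4 (adjusted p = 0.0507). Sec31b was between 0.575 and 1.62 CPM in all 16 libraries, with changes of 0.09 ± 0.23 (adjusted p = 0.76) in DC and -0.33 ± 0.22 (adjusted p = 0.193) in Si8. In sum over the 9 coat genes, the level was 906 ± 18.8 CPM in DC goblet and 619 ± 22.6 CPM in DC other cells, and 1230 ± 68.9 CPM in Si8 goblet and 1318 ± 70.8 CPM in Si8 other cells (SD, n = 4). 6 of the 9 were higher and 2 lower in DC, beside 27.8% and 27.9% of all genes tested. In Si8 3 were higher and 4 lower, beside 33.1% and 31.8%. The share of coat genes higher in Si8, 33.3%, was thus near that of all genes.

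The promoters of the Sec23 paralogues and of Sec24d, the COPII coat gene that rose most, are shown from RefSeq (build GRCm38.p6, 250 bases before to 50 after a start, 5′ to 3′ on the gene's strand). Capitals mark TGACGTG, or its reverse complement, the core of the unfolded protein response element, which XBP1 and ATF6, factors that raise ER capacity, are known to bind. Sec24d (chr3:123267246-123267545, plus strand) has the core 26 bases before the start, and Sec23a (chr12:59011968-59012267, minus strand), which was lower in goblet cells, has it 6 bases after the start. Sec23b (chr2:144555979-144556278, plus strand, the first of its 2 windows) does not hold these letters, and neither do the windows of Sec24a, Sec24b and Sec24c.
Sec24d: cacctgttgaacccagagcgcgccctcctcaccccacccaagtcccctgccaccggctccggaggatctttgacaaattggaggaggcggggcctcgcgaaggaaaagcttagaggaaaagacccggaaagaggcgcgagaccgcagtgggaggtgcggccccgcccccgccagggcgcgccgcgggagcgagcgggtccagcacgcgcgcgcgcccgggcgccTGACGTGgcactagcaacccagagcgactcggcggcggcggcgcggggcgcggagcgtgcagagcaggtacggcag
Sec23a: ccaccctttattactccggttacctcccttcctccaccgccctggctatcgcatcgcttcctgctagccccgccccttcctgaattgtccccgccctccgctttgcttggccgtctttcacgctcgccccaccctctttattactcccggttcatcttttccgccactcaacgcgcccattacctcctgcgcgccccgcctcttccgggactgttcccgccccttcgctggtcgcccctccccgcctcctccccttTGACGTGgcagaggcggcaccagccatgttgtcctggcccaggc
Sec23b: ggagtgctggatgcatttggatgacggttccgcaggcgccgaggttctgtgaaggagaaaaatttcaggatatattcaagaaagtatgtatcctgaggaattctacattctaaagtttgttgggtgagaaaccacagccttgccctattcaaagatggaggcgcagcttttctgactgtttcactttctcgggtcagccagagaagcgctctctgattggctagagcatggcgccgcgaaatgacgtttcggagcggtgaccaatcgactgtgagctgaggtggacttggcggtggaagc
Windows were found for 44 of the 49 genes, and those without one were Arcn1, Kdelr2, Lman1, Tmed2 and Tmed7. The core, searched on both strands, was in at least 1 window of 10 of the genes with windows: Arf1, Copb1, Copb2, Gbf1, Kdelr3, Mia3, Sec16b, Sec23a, Sec24d and Stx5a. Among these, Sec23a was lower in goblet cells of both regions, and Gbf1 and Sec16b were higher in DC and lower in Si8. Arf1 was higher in DC and not called in Si8, and the rest were higher in both. The windows of Copz2 and Tmed3, which were higher in both regions, did not hold the core. By window it was in 11 of 50, beside 2.01% of all 32851 windows and 2.87% of the 13667 windows of genes tested here. The 2 windows of Arf1 overlap and hold the same core, which is counted in both. The longer ER stress element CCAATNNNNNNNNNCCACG was searched in the same way, and was in 0 of the 50 windows, beside 0.119% of all windows and 0.146% of those of genes tested. The 2 patterns can share letters, and no window here held both. A match is only a run of letters; binding was not measured.

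At ER exit sites the pattern split again between paralogues. Mia3, known as TANGO1, is the receptor that helps bulky cargo such as collagen enter COPII carriers. Mia3 had 442, 462, 445 and 429 CPM in DC goblet cells, against 85.2, 89.4, 93.5 and 93.4 CPM in DC other cells. It had 235, 221, 278 and 248 CPM in Si8 goblet cells, against 99.8, 94.3, 98.7 and 99.5 CPM in Si8 other cells. All goblet libraries were above all libraries of other cells in their region, with changes of 2.30 ± 0.08 (adjusted p = 5.7e-15) in DC (4.92-fold) and 1.32 ± 0.07 (adjusted p = 1e-11) in Si8 (2.50-fold). The Mia3 promoter (chr1:183369516-183369815, minus strand) holds the same core 86 bases before the start, in capitals.
Mia3: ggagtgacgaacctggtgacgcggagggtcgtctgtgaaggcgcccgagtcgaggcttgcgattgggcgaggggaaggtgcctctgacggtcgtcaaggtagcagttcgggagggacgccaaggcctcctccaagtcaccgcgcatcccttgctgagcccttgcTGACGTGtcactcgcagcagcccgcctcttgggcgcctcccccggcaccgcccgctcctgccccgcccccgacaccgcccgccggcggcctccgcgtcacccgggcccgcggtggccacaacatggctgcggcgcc

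Sec16a, the main scaffold of exit sites, had 319.8, 341, 351 and 350.4 CPM in DC goblet cells, against 144, 136, 144 and 142 CPM in DC other cells. It had 295, 319, 381 and 315 CPM in Si8 goblet cells, against 224, 208, 242 and 233 CPM in Si8 other cells. It rose in both regions without overlap, with changes of 1.27 ± 0.08 (adjusted p = 8.1e-11) in DC and 0.53 ± 0.08 (adjusted p = 1e-05) in Si8. Sec16b, the shorter paralogue, had 44.7, 50.1, 47.8 and 48.3 CPM in DC goblet cells, against 37.00, 36.96, 37.6 and 37.3 CPM in DC other cells. It had 47.5, 53.1, 60.4 and 54.3 CPM in Si8 goblet cells, against 71.6, 75.8, 99.9 and 114 CPM in Si8 other cells. Sec16b was higher in every DC goblet library (0.36 ± 0.12, adjusted p = 0.0141) and lower in every Si8 goblet library (-0.74 ± 0.11, adjusted p = 1.3e-05). The log2 ratio of Sec16b to Sec16a was lower in goblet cells, with a difference of -0.91 in DC and of -1.24 in Si8, without overlap (exact permutation p = 0.0286 in each).

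Sar1a and Sar1b encode the COPII GTPase, and in humans SAR1B is the form whose loss blocks export of chylomicrons from enterocytes. Sar1a had 162, 181, 164 and 183 CPM in DC goblet cells, against 85.7, 88.9, 78.03 and 84.8 CPM in DC other cells. It had 138, 126, 138 and 124 CPM in Si8 goblet cells, against 76.04, 74.3, 66.5 and 63.8 CPM in Si8 other cells. Sar1a was higher in every goblet library, with changes of 1.03 ± 0.08 (adjusted p = 7.1e-10) in DC and 0.91 ± 0.08 (adjusted p = 3.8e-09) in Si8. Sar1b had 52.95, 53.1, 47.5 and 49.2 CPM in DC goblet cells, against 45.5, 50.6, 50.2 and 47.1 CPM in DC other cells. It had 56.6, 43.8, 49.8 and 48.7 CPM in Si8 goblet cells, against 85.7, 72.8, 83.2 and 86.9 CPM in Si8 other cells. The DC groups overlapped (0.07 ± 0.08, adjusted p = 0.514), whereas every Si8 goblet library was below every Si8 other library (-0.72 ± 0.08, adjusted p = 2.5e-07). As log2 ratios, Sar1b to Sar1a averaged -1.76 in DC goblet and -0.80 in DC other cells, and -1.40 in Si8 goblet and 0.23 in Si8 other cells, without overlap in either region (exact permutation p = 0.0286 in each). Per kilobase of exon Sar1a was 53.3% ± 2.03 of the pair in DC goblet and 36.9% ± 1.90 in DC other cells, and 47.1% ± 1.85 in Si8 goblet and 22.3% ± 2.48 in Si8 other cells. With the longest transcript as the length, Sar1a was 61.0% in DC goblet and 44.5% in DC other cells. In Si8 it was then 55.0% in goblet and 28.25% in other cells. Which of the pair was the larger in Si8 goblet cells thus depended on the length.

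Tfg, which forms assemblies between exit sites and the ER-Golgi intermediate compartment, had the largest difference between the regions. Tfg had 74.9, 80.1, 75.3 and 80.6 CPM in DC goblet cells, against 50.03, 51.5, 41.4 and 45.7 CPM in DC other cells. It had 102, 93.3, 100.2 and 102 CPM in Si8 goblet cells, against 184, 154, 169 and 191 CPM in Si8 other cells. All DC goblet libraries were above the DC other libraries (0.72 ± 0.08, adjusted p = 3e-07) and all Si8 goblet libraries below the Si8 other libraries (-0.81 ± 0.08, adjusted p = 3.2e-08). Preb, the exchange factor of Sar1, lay between 89.8 and 97.9 CPM in DC goblet libraries and between 48.5 and 55.1 CPM in DC other libraries, a rise of 0.86 ± 0.07 (adjusted p = 4.3e-09). In Si8 Preb lay between 143 and 171 CPM in Si8 goblet libraries and between 125 and 137 CPM in Si8 other libraries, a rise of 0.27 ± 0.07 (adjusted p = 0.00208). Over these 7 genes, 6 were higher in DC and none lower, beside 27.8% and 27.9% of all genes. In Si8 4 were higher and 3 lower, beside 33.1% and 31.8%.

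**Figure D2:**
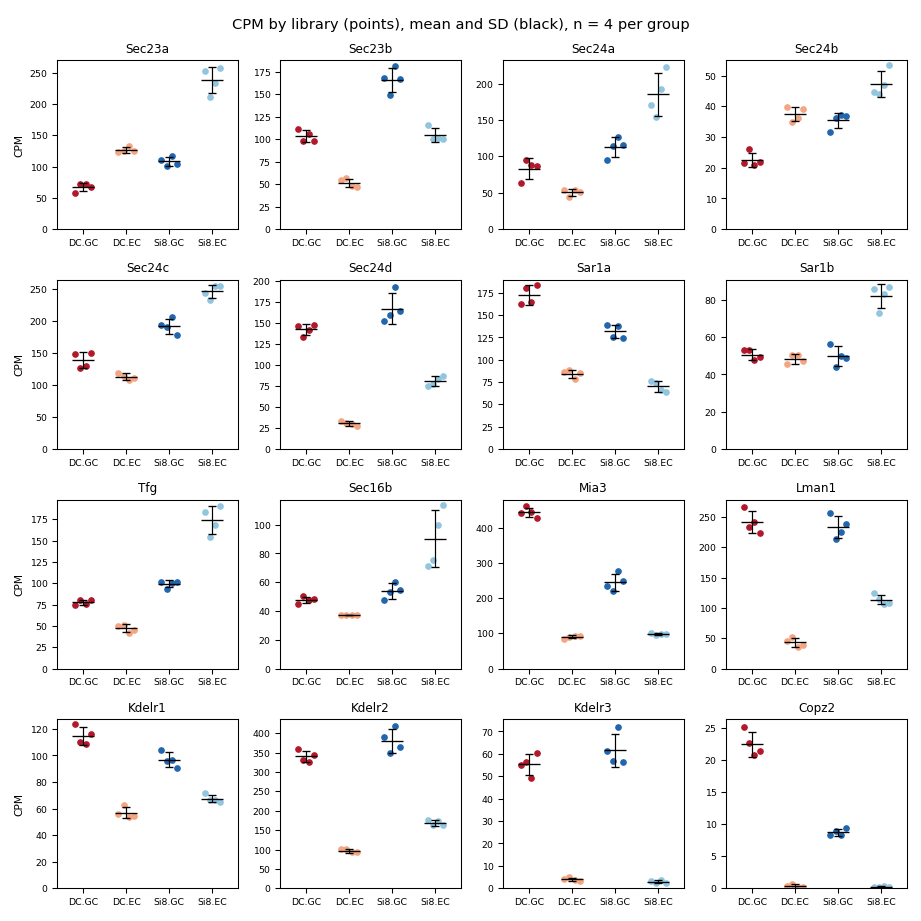
CPM in each library (points, y axis from 0) for 16 of the genes, 1 panel a gene, with black lines for the mean and SD of the 4 libraries; GC marks goblet cells and EC other cells, in DC and in Si8. The Sec23a and Sec23b panels show opposite steps, and the Tfg and Sec24a panels show goblet cells above other cells in DC and below them in Si8.

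COPI subunits rose almost as a block, and 1 of them stood far above the rest. 8 of the 9 were higher in each region, beside 27.8% of all genes in DC and 33.1% in Si8. In each region 0 were lower, beside 27.9% in DC and 31.8% in Si8. Copz2, a minor paralogue of the zeta subunit, had 25.1, 22.6, 20.7 and 21.4 CPM in DC goblet cells, against 0.368, 0.713, 0.194 and 0.181 CPM in DC other cells. It had 8.37, 8.86, 8.24 and 9.40 CPM in Si8 goblet cells, against 0.244, 0.176, 0.422 and 0.130 CPM in Si8 other cells. It was near absent outside goblet cells in both regions, where its libraries held 3 to 12 counts each in DC other cells and 4 to 13 in Si8 other cells. The summed counts were 1626 in DC goblet against 25 in DC other cells, a ratio of 60.8 (95% counting interval 41.0 to 94.2), and 1254 in Si8 goblet against 31 in Si8 other cells, a ratio of 36.7 (25.7 to 54.2). The fitted changes were 5.91 ± 0.24 (adjusted p = 1.2e-13) in DC and 5.16 ± 0.24 (adjusted p = 6.9e-13) in Si8, the largest of the 49 genes in both regions. These intervals cover counting error only.

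Copz1, the major zeta subunit, had 114, 116, 116 and 109 CPM in DC goblet cells, against 62.5, 66.2, 53.4 and 62.4 CPM in DC other cells. It had 134, 130.2, 141 and 138 CPM in Si8 goblet cells, against 115, 102, 105 and 114 CPM in Si8 other cells. The groups did not overlap, and the changes were 0.90 ± 0.07 (adjusted p = 2.4e-09) in DC and 0.32 ± 0.07 (adjusted p = 0.00059) in Si8. Per kilobase of exon, Copz2 was 24.6% ± 1.59 of the zeta pair in DC goblet and 0.950% ± 0.574 in DC other cells, and 9.63% ± 0.659 in Si8 goblet and 0.372% ± 0.206 in Si8 other cells. The log2 ratio of Copz2 to Copz1 was higher by 3.87 in DC goblet cells and by 3.33 in Si8 goblet cells than in other cells, and by 2.49 and 1.94 with 2 CPM added in place of 0.5 (exact permutation p = 0.0286 in each). Of the gamma subunits, Copg2 was between 53.6 and 72.0 CPM in all 16 libraries and was not called in either region, whereas Copg1 lay between 237 and 251 CPM in DC goblet libraries and between 119 and 135 CPM in DC other libraries (0.94 ± 0.07, adjusted p = 4.7e-10). In Si8 Copg1 lay between 285 and 326 CPM in Si8 goblet libraries and between 228 and 239 CPM in Si8 other libraries (0.38 ± 0.07, adjusted p = 6.3e-05).

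Among the other coatomer subunits, the beta-prime subunit Copb2 had 501, 495, 469 and 482 CPM in DC goblet cells, against 205, 213, 177 and 184 CPM in DC other cells. It had 416, 372, 443 and 411 CPM in Si8 goblet cells, against 285, 262, 249 and 275 CPM in Si8 other cells. Copb2 rose with changes of 1.32 ± 0.08 (adjusted p = 3.2e-11) in DC and 0.62 ± 0.08 (adjusted p = 1.2e-06) in Si8, with no overlap. Cope, the epsilon subunit, had 140.4, 127, 123 and 134 CPM in DC goblet cells, against 65.5, 69.8, 61.7 and 61.6 CPM in DC other cells. It had 153, 165, 180.2 and 139 CPM in Si8 goblet cells, against 112, 125, 120.0 and 105 CPM in Si8 other cells. Cope also rose without overlap, with changes of 1.02 ± 0.09 (adjusted p = 3.9e-09) in DC and 0.47 ± 0.08 (adjusted p = 7.3e-05) in Si8. The alpha subunit Copa, the beta subunit Copb1 and the delta subunit Arcn1 rose by 0.94 ± 0.07, 0.98 ± 0.07 and 0.67 ± 0.08 in DC, and by 0.35 ± 0.07, 0.60 ± 0.07 and 0.34 ± 0.08 in Si8. Summed over the 9 subunits, the level was 2303 ± 61.4 CPM in DC goblet and 1189 ± 72.8 CPM in DC other cells, and 2260 ± 130.0 CPM in Si8 goblet and 1681 ± 52.2 CPM in Si8 other cells.

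Arf GTPases recruit coatomer, and Gbf1 loads them with GTP at the early Golgi. Arf4 had 315, 351, 355 and 344 CPM in DC goblet cells, against 163, 157, 143 and 146 CPM in DC other cells. It had 284, 276, 325 and 313 CPM in Si8 goblet cells, against 148, 149, 137 and 142 CPM in Si8 other cells. Arf4 was higher in every goblet library of both regions, with changes of 1.17 ± 0.07 (adjusted p = 8.1e-11) in DC and 1.06 ± 0.07 (adjusted p = 3.1e-10) in Si8. Arf1, the more abundant per kilobase in all 4 groups, lay between 396 and 421 CPM in DC goblet libraries and between 258 and 299 CPM in DC other libraries (0.54 ± 0.07, adjusted p = 2.7e-06). In Si8 Arf1 lay between 432 and 494 CPM in Si8 goblet libraries and between 407 and 431 CPM in Si8 other libraries and was not called (0.14 ± 0.07, adjusted p = 0.0867). Gbf1 had 129, 129, 136 and 128 CPM in DC goblet cells, against 111, 106, 108 and 108 CPM in DC other cells. It had 158, 166, 206 and 187 CPM in Si8 goblet cells, against 203, 182, 223 and 245 CPM in Si8 other cells. Gbf1 was higher without overlap in DC (0.27 ± 0.09, adjusted p = 0.0162) and lower with overlap in Si8 (-0.25 ± 0.09, adjusted p = 0.0199). Both calls of Gbf1 were weak: the DC call was lost without DC other replicate 3 (adjusted p = 0.0679), and the Si8 call without Si8 other replicate 4 (0.0856), Si8 goblet replicate 1 (0.0740) or Si8 goblet replicate 2 (0.0586).

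KDEL receptors bind escaped ER residents in the Golgi and return them in COPI vesicles. Kdelr3 had 55.1, 56.5, 49.02 and 60.6 CPM in DC goblet cells, against 4.10, 4.93, 3.69 and 3.32 CPM in DC other cells. It had 61.2, 56.6, 71.9 and 56.3 CPM in Si8 goblet cells, against 3.17, 2.26, 3.57 and 2.27 CPM in Si8 other cells. Every goblet library was far above every library of other cells, 13.8-fold in DC (3.78 ± 0.15, adjusted p = 6.5e-14) and 21.9-fold in Si8 (4.46 ± 0.15, adjusted p = 9.8e-15). Its goblet change was called smaller in DC than in Si8, with a difference of -0.67 ± 0.20 (adjusted p = 0.0154). Kdelr3 overlaps Ddx17 on the opposite strand, and Ddx17 was not called, with changes of 0.07 ± 0.09 (adjusted p = 0.548) in DC and 0.02 ± 0.09 (adjusted p = 0.85) in Si8. The Kdelr3 promoter (chr15:79516158-79516457, plus strand) holds the reverse complement of the unfolded protein response core, 29 bases before the start.
Kdelr3: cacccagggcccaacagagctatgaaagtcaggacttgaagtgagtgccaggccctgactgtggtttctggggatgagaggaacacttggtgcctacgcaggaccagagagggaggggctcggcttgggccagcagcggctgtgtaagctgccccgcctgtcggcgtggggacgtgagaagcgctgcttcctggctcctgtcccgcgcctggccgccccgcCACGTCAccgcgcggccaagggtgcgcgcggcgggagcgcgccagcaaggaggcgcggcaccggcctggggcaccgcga

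Kdelr2, the most abundant of the 3 per kilobase, had 359, 332, 325 and 345 CPM in DC goblet cells, against 102, 102, 93.3 and 92.3 CPM in DC other cells. It had 389.5, 348, 419.7 and 364 CPM in Si8 goblet cells, against 177, 162, 173 and 162 CPM in Si8 other cells. Kdelr2 rose without overlap with changes of 1.81 ± 0.08 (adjusted p = 1.6e-13) in DC and 1.17 ± 0.07 (adjusted p = 6.5e-11) in Si8. Kdelr1 had 124, 110.4, 109 and 116 CPM in DC goblet cells, against 56.2, 62.8, 53.5 and 54.6 CPM in DC other cells. It had 104, 95.9, 96.8 and 90.5 CPM in Si8 goblet cells, against 71.8, 66.6, 66.6 and 65.2 CPM in Si8 other cells. Kdelr1 rose the least of the 3 in both regions, with changes of 1.02 ± 0.07 (adjusted p = 3.6e-10) in DC and 0.52 ± 0.07 (adjusted p = 2.8e-06) in Si8, again without overlap. Per kilobase of exon, Kdelr3 was 13.7% ± 0.904 of the family in DC goblet and 3.28% ± 0.376 in DC other cells, and 14.4% ± 0.687 in Si8 goblet and 1.53% ± 0.305 in Si8 other cells. The log2 ratio of Kdelr3 to Kdelr2 was -2.61 in DC goblet and -2.62 in Si8 goblet cells, a difference of 0.009 with overlapping groups (exact permutation p = 0.914).

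Lman1 and Mcfd2 form a receptor complex that exports glycoproteins such as coagulation factors from the ER, and they did not move as a pair. Lman1, the lectin of the complex, had 267, 234, 242 and 224 CPM in DC goblet cells, against 45.6, 51.9, 35.9 and 38.6 CPM in DC other cells. It had 257, 214, 225 and 238 CPM in Si8 goblet cells, against 125, 115, 106 and 109 CPM in Si8 other cells. It rose without overlap, 5.62-fold in DC (2.49 ± 0.11, adjusted p = 1.9e-13) and 2.05-fold in Si8 (1.04 ± 0.10, adjusted p = 2.9e-08). Mcfd2, its calcium-binding partner, had 98.2, 102, 97.98 and 93.4 CPM in DC goblet cells, against 74.7, 75.2, 74.3 and 79.2 CPM in DC other cells. It had 141, 125, 142 and 128 CPM in Si8 goblet cells, against 158, 144, 165 and 169 CPM in Si8 other cells. Mcfd2 was higher in every DC goblet library (0.37 ± 0.07, adjusted p = 0.00015) and lower in every Si8 goblet library (-0.24 ± 0.07, adjusted p = 0.00397). Without the filter on low counts the Si8 change of Mcfd2 had an adjusted p of 0.0580.

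Lman2, a related lectin of the early secretory pathway, had 264, 221, 241 and 225 CPM in DC goblet cells, against 167, 172, 139 and 146 CPM in DC other cells. It had 317, 292, 306 and 290.4 CPM in Si8 goblet cells, against 288, 294, 291 and 280.3 CPM in Si8 other cells. Lman2 was higher without overlap in DC (0.61 ± 0.08, adjusted p = 2.2e-06), and in Si8 the groups overlapped (0.06 ± 0.08, adjusted p = 0.495). As log2 ratios, Lman2 to Lman1 averaged -0.02 in DC goblet and 1.85 in DC other cells, and 0.37 in Si8 goblet and 1.34 in Si8 other cells, without overlap in either region (exact permutation p = 0.0286 in each). Surf4, a receptor for soluble cargo, had 396, 400.5, 382 and 384 CPM in DC goblet cells, against 168, 168, 140.3 and 141 CPM in DC other cells. It had 441, 396, 444 and 409 CPM in Si8 goblet cells, against 358, 339, 337 and 341 CPM in Si8 other cells. Its goblet libraries were above those of other cells in both regions, with changes of 1.34 ± 0.08 (adjusted p = 1.8e-11) in DC and 0.29 ± 0.08 (adjusted p = 0.00219) in Si8. Of the 7 receptors all were higher in DC, beside 27.8% of all genes. In Si8 5 were higher and 1 lower, beside 33.1% and 31.8%.

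p24 proteins cycle between the ER and the Golgi and sort cargo into both kinds of vesicle. Tmed3 had 190.5, 167, 173 and 168 CPM in DC goblet cells, against 46.03, 55.9, 41.2 and 39.8 CPM in DC other cells. It had 129, 116, 141 and 123 CPM in Si8 goblet cells, against 34.97, 33.8, 35.3 and 30.6 CPM in Si8 other cells. Tmed3 rose without overlap and by nearly the same amount in both regions, 1.93 ± 0.10 (adjusted p = 2.9e-12) in DC and 1.92 ± 0.10 (adjusted p = 3.1e-12) in Si8, a difference of 0.01 ± 0.14 (adjusted p = 0.96). Tmed9 had 145, 136, 134 and 134 CPM in DC goblet cells, against 56.4, 55.3, 45.1 and 53.2 CPM in DC other cells. It had 136, 135, 144 and 124 CPM in Si8 goblet cells, against 50.4, 55.4, 49.97 and 43.3 CPM in Si8 other cells. Tmed9 likewise rose without overlap, with changes of 1.39 ± 0.09 (adjusted p = 4.4e-11) in DC and 1.43 ± 0.08 (adjusted p = 2.3e-11) in Si8.

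Tmed2 had 148, 126, 132 and 133 CPM in DC goblet cells, against 64.3, 75.9, 59.8 and 61.3 CPM in DC other cells. It had 135, 109.8, 126 and 119.5 CPM in Si8 goblet cells, against 74.4, 74.5, 64.6 and 62.3 CPM in Si8 other cells. Every goblet library of Tmed2 was above every library of other cells in its region, with changes of 1.04 ± 0.09 (adjusted p = 8.2e-09) in DC and 0.83 ± 0.09 (adjusted p = 1.5e-07) in Si8. Tmed2 is uncertain, since the processed pseudogene Gm10698 matches it over 604 bp at 100% and held 1954 counts beside 40804 of Tmed2, so reads could have been split or dropped. Tmed10 and Arcn1 have processed pseudogenes of like sequence, and Tmed7 shares 838 bp with Ticam2, so their values are uncertain too, although Ticam2 held only 78 counts beside 86669 of Tmed7. Tmed7 had 259.6, 246, 242 and 234 CPM in DC goblet cells, against 164, 182, 154 and 169 CPM in DC other cells. It had 244, 192, 227 and 216 CPM in Si8 goblet cells, against 221, 199, 188 and 195 CPM in Si8 other cells. Tmed7 was higher without overlap in DC (0.55 ± 0.08, adjusted p = 1e-05), and in Si8 the groups overlapped (0.13 ± 0.08, adjusted p = 0.16), with an adjusted p of 0.0489 when Si8 goblet replicate 2 was left out. Tmed5 rose by 0.74 ± 0.12 in DC and 0.51 ± 0.12 in Si8, and Tmed10 by 0.65 ± 0.06 in DC and 0.54 ± 0.06 in Si8. The sum over the 6 p24 genes was 920 ± 32.4 CPM in DC goblet and 473 ± 25.8 CPM in DC other cells, and 817 ± 53.5 CPM in Si8 goblet and 501 ± 35.5 CPM in Si8 other cells.

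At the Golgi, Gorasp1 and Gorasp2 link cisternae into stacks and ribbons. Gorasp1 had 50.1, 52.6, 47.05 and 52.4 CPM in DC goblet cells, against 21.3, 18.5, 17.3 and 23.9 CPM in DC other cells. It had 31.7, 35.4, 30.4 and 27.1 CPM in Si8 goblet cells, against 12.5, 15.6, 12.8 and 12.7 CPM in Si8 other cells. Each goblet library exceeded every library of other cells in its region, with changes of 1.32 ± 0.11 (adjusted p = 3.2e-09) in DC and 1.22 ± 0.11 (adjusted p = 7.5e-09) in Si8. Gorasp2 had 162, 166, 154 and 162 CPM in DC goblet cells, against 67.5, 73.4, 60.4 and 64.4 CPM in DC other cells. It had 154, 142, 152 and 145 CPM in Si8 goblet cells, against 97.4, 88.1, 79.7 and 80.1 CPM in Si8 other cells. Gorasp2 also rose without overlap, with changes of 1.27 ± 0.08 (adjusted p = 4e-11) in DC and 0.78 ± 0.08 (adjusted p = 3.4e-08) in Si8. Their log2 ratio differed by 0.04 between DC goblet and DC other cells (exact permutation p = 0.743) and by 0.41 between Si8 goblet and Si8 other cells (0.0286). Golga2, the tether that binds Gorasp1, lay between 109.8 and 127 CPM in DC goblet libraries and between 95.5 and 108 CPM in DC other libraries. Golga2 was not called in DC (0.19 ± 0.09, adjusted p = 0.0968) although its groups did not overlap there, and it was called with total counts as the only scaling (adjusted p = 0.00354) and with the regions fitted apart (0.0323). In Si8 Golga2 changed by 0.06 ± 0.09 (adjusted p = 0.592). Uso1, a tether that catches vesicles at the cis-Golgi, rose with changes of 0.84 ± 0.10 (adjusted p = 3.4e-07) in DC and 0.31 ± 0.09 (adjusted p = 0.00713) in Si8.

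Bet1, Sec22b, Gosr2 and Stx5a are the SNAREs that fuse ER-derived carriers with early Golgi membranes. All 4 rose in both regions, as did 18.6% of all genes tested. Bet1 had 61.6, 50.3, 56.4 and 50.1 CPM in DC goblet cells, against 18.7, 21.98, 17.4 and 15.4 CPM in DC other cells. It had 47.2, 41.7, 51.03 and 53.6 CPM in Si8 goblet cells, against 26.7, 23.4, 20.6 and 23.2 CPM in Si8 other cells. The Bet1 groups did not overlap in either region, with changes of 1.57 ± 0.12 (adjusted p = 5.7e-10) in DC and 1.04 ± 0.11 (adjusted p = 9.5e-08) in Si8. Sec22b had 80.6, 87.4, 79.9 and 80.6 CPM in DC goblet cells, against 32.9, 35.95, 33.7 and 29.8 CPM in DC other cells. It had 69.4, 62.9, 75.6 and 69.2 CPM in Si8 goblet cells, against 52.4, 50.4, 57.4 and 54.6 CPM in Si8 other cells. Sec22b was higher in every goblet library, with changes of 1.31 ± 0.08 (adjusted p = 2.1e-11) in DC and 0.37 ± 0.07 (adjusted p = 0.00024) in Si8. Gosr2 rose by 0.33 ± 0.08 in DC and 0.25 ± 0.07 in Si8, and Stx5a by 0.79 ± 0.08 in DC and 0.43 ± 0.08 in Si8.

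**Figure D3:**
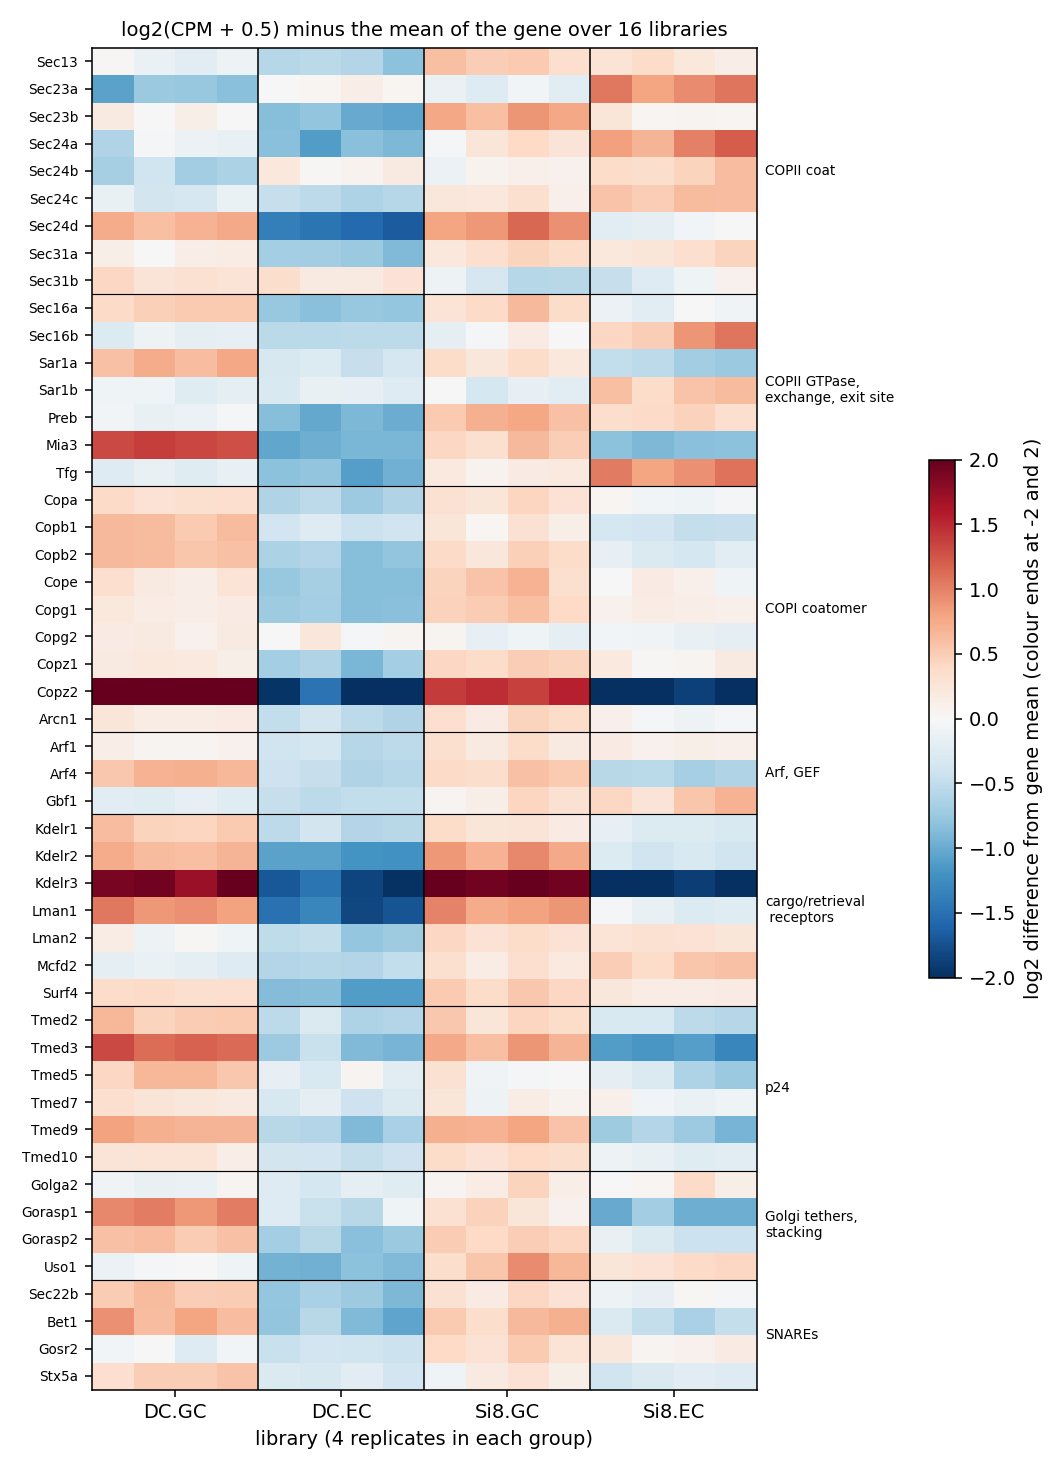
Level of each of the 49 genes (down the page, by role) in each of the 16 libraries (across, GC for goblet and EC for other cells), as log2 of CPM + 0.5 minus the mean of the gene over all libraries; red is above and blue below that mean, and colours end at -2 and 2. Copz2 and Kdelr3 are dark red in goblet and dark blue in other libraries of both regions, and Tfg, Sec24a and Sec23a are reddest in the Si8 libraries of other cells.

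The goblet change differed between the regions for most of the genes. Tested as a difference of effects, it was larger in DC for 32 of the 49, beside 15.6% of all genes, and smaller for 1, Kdelr3, beside 16.5%. The 32 became 26 to 33 with a library left out. Sec24b (-0.32 ± 0.12, adjusted p = 0.058) joined Kdelr3 when 1 of DC other replicate 2 or 3, DC goblet replicate 2, Si8 other replicate 4 or Si8 goblet replicate 1 was left out (adjusted p between 0.0231 and 0.0468). The median difference was 0.52 for the 49 and -0.03 for all genes. Absorptive markers differed between the goblet sorts too, at 196 to 262 CPM in DC goblet and 1180 to 2250 CPM in Si8 goblet libraries, where most of the sum was Krt20. Paneth markers differed more, at 21.8 to 25.2 CPM in DC goblet and 12400 to 33000 CPM in Si8 goblet libraries. The part of either in the difference of effects was not tested. 6 genes differed by at least 1 on the log2 scale: Tfg by 1.53 ± 0.11 (adjusted p = 4.2e-09), Lman1 by 1.46 ± 0.14 (adjusted p = 1.9e-07), Sec24a by 1.43 ± 0.18 (adjusted p = 5.1e-06), Sec24d by 1.18 ± 0.12 (adjusted p = 3.1e-07), Sec16b by 1.10 ± 0.16 (adjusted p = 3e-05) and Surf4 by 1.04 ± 0.11 (adjusted p = 3.7e-07). Genes with no call on the difference included Copz2 (0.75 ± 0.44, adjusted p = 0.212), Sec23a (0.24 ± 0.12, adjusted p = 0.132), Sar1a (0.12 ± 0.11, adjusted p = 0.403), Arf4 (0.11 ± 0.10, adjusted p = 0.464) and Tmed9 (-0.05 ± 0.12, adjusted p = 0.786). Copz2 was called without DC other replicate 2 (adjusted p = 0.0332), and Sec23a without DC goblet replicate 1 (0.0479) or Si8 other replicate 2 (0.0429). By role, the difference was called for 6 of the 7 exit site genes, 7 of the 9 coatomer subunits and all 7 receptors, Kdelr3 with the opposite sign, and for 1 of the 6 p24 genes, Tmed7, which lost its call without DC other replicate 3 (0.0552). Without that library the difference was also not called for Copb1 (0.0553), Bet1 (0.0577), Stx5a (0.0518), Arcn1 (0.124) and Sec23b (0.148). Arcn1 and Sec23b also lost it without DC other replicate 4, DC goblet replicate 1, Si8 other replicate 1 or Si8 goblet replicate 2 (adjusted p between 0.0505 and 0.0777), and Sec23b without DC goblet replicate 3 (0.0615). With no filter on low counts the call was lost for Sec23b (adjusted p = 0.11), Arcn1 (0.125) and Stx5a (0.0815). Leaving out the mitochondrially encoded genes lost it for Sec23b (adjusted p = 0.0628) and Arcn1 (0.06).

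Set region against region, the 49 genes split both ways in goblet cells and mostly 1 way in other cells. Between DC goblet and Si8 goblet cells, 14 of the 49 genes were higher, beside 30.6% of all genes, and 20 lower, beside 31.5%, with a median of -0.12. At 1 or more on the log2 scale, 2 were higher in DC goblet cells, Copz2 (1.36 ± 0.15, adjusted p = 3.1e-07) and Sec31b (1.01 ± 0.22, adjusted p = 0.00059), beside 12.6% of all genes, and 0 were lower, beside 13.1%. The 2 became 1 with RLE factors, DESeq2, no filter or the mitochondrially encoded genes left out, 1 to 2 with a library left out and 4 with total counts only, and Sec31b had 18 to 37 counts in each goblet library. Between DC other and Si8 other cells, 7 of the 49 were higher, beside 33.3%, and 35 lower, beside 33.6%, with a median of -0.57. At 1 or more on the log2 scale 0 were higher, beside 16.2%, and 12 lower, beside 15.8%. The 12 were Sec23b, Sec24a, Sec24c, Sec24d, Sec31a, Sec16b, Preb, Tfg, Lman1, Mcfd2, Surf4 and Uso1, and total counts as the only scaling gave 5 in place of 12. The lowest were Tfg (-1.89 ± 0.08, adjusted p = 1.2e-13), Sec24a (-1.87 ± 0.13, adjusted p = 2.3e-10), Sec24d (-1.41 ± 0.09, adjusted p = 2.7e-11) and Lman1 (-1.40 ± 0.10, adjusted p = 3.4e-10).

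A difference of effects can come from the goblet cells or from the cells they were set against. Lman1 differed by 0.05 ± 0.10 between DC goblet and Si8 goblet cells and by -1.40 ± 0.10 between DC other and Si8 other cells. Surf4 likewise differed by -0.11 ± 0.08 between the goblet cells and by -1.16 ± 0.08 between the other cells. Mia3 was the reverse, higher in DC goblet than in Si8 goblet cells (0.86 ± 0.07, adjusted p = 4.5e-09) and not called between the other cells (-0.12 ± 0.07, adjusted p = 0.16). The region contrasts depended on the scaling. With total counts as the only scaling the median of all genes moved to 0.32 between goblet cells and 0.27 between other cells, and the 49 genes then split into 25 higher and 5 lower between goblet cells and 11 higher and 26 lower between other cells. Between goblet cells Lman1 was then called higher in DC (0.39, adjusted p = 0.0112), and so was Surf4, with the other sign (0.23, adjusted p = 0.0427). Between other cells they then had -1.13 (Lman1) and -0.88 (Surf4). Intraepithelial lymphocyte markers moved with the Si8 other cells, summing to 10.8 to 18.8 CPM in Si8 goblet and 197 to 313 CPM in Si8 other libraries, and their part in these levels was not tested.

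**Figure D4:**
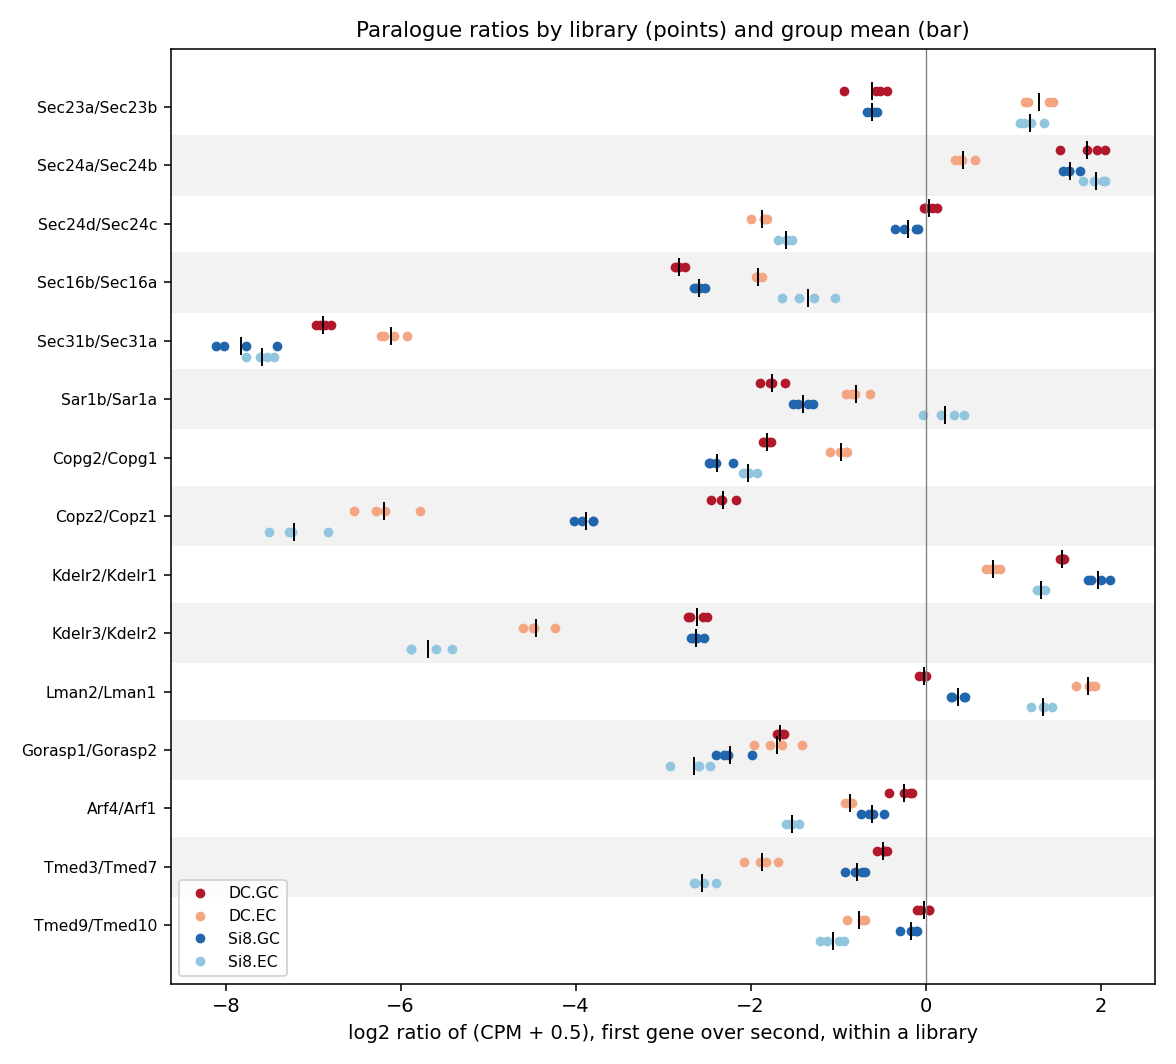
Log2 ratio of paralogues within a library (x axis; points, 4 a group, with a bar at the group mean; 0.5 CPM added to each gene) for the 15 pairs, with GC for goblet above EC for other cells in DC and in Si8. Sec23a to Sec23b lies below 0 in every goblet library and above 0 in every library of other cells in both regions, and Copz2 to Copz1 is higher in all goblet libraries.

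Over all 15 paralogue pairs, 14 ratios did not overlap between goblet and other cells in DC, and 14 in Si8, where 53.8% and 53.9% of all single genes had groups without overlap. The exceptions were Gorasp1 to Gorasp2 in DC and Sec31b to Sec31a in Si8. Taken singly, 46 of the 49 genes in DC and 40 in Si8 had no overlap. The share for ratios of other gene pairs was not computed, so these counts of ratios are given only as a description. Between DC goblet and Si8 goblet cells 12 of the 15 did not overlap, beside 57.2% of single genes, and between DC other and Si8 other cells 14 of the 15, beside 59.6%. Of these 60 comparisons, 54 had the smallest exact p, 0.0286, which is 0.0318 after Benjamini-Hochberg adjustment over the 60. The Sec24a to Sec24b ratio turned round between the regions, with a difference of 1.42 between DC goblet and DC other cells and of -0.30 between Si8 goblet and Si8 other cells (exact permutation p = 0.0286 in each).

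Beyond these 49 genes the wider pathway was mixed. Of 85 further genes of the early secretory pathway, all tested, 46 were higher and 13 lower in DC, with a median log2 fold change of 0.30, and 35 were higher and 23 lower in Si8, with a median of 0.10. These are 54.1% higher and 15.3% lower in DC, where all genes gave 27.8% and 27.9%, and 41.2% higher and 27.1% lower in Si8, where all genes gave 33.1% and 31.8%. The lists of COPII accessory, Arf, Rab, other SNARE, other cargo receptor and transcription factor genes below are short, and several of their shares lie near those of all genes. Their counts are given only as a description. For each list, genes at the 2 ends of the called changes are named. Golgi tethers other than the 4 above were higher for 18 of 20 in DC with 0 lower, and for 17 of 20 in Si8 with 1 lower, Golga4 (-0.47 ± 0.11). In DC they ran from Cog4 (0.20 ± 0.07) and Golga1 (0.23 ± 0.08) to the COG complex subunit Cog2 (1.45 ± 0.09) and Nbas (1.48 ± 0.08), a tether of vesicles that return to the ER. In Si8 the lowest after Golga4 was Golga1 (0.20 ± 0.08), and the highest were Cog1 (1.00 ± 0.09) and Nbas (1.21 ± 0.08).

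COPII accessory and TRAPP tether genes were 6 higher and 4 lower of 19 in DC, and 2 higher and 8 lower in Si8. Mia2, the paralogue and partner of Mia3, with which it is known to help export lipoproteins, was lower in both regions (-1.17 ± 0.15, adjusted p = 1.9e-06 in DC and -1.98 ± 0.14, adjusted p = 4.5e-10 in Si8). Trappc10 was next lowest (-0.48 ± 0.07 in DC and -0.77 ± 0.07 in Si8). Sec23ip, which binds Sec23, was highest in both (0.76 ± 0.07, adjusted p = 2.1e-08 in DC and 0.75 ± 0.07, adjusted p = 1.8e-08 in Si8), followed by Trappc2 in DC (0.73 ± 0.18) and Trappc5 in Si8 (0.31 ± 0.08).

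Arf GTPases, their activating proteins and exchange factors were 3 higher and 3 lower of 9 in DC, and 2 higher and 4 lower in Si8. The lowest were Arf3 (-0.58 ± 0.07 in DC and -0.69 ± 0.07 in Si8) and Arf6 (-0.33 ± 0.09 in DC and -0.83 ± 0.09 in Si8). Arfgap1, which switches Arf1 off, was among the higher ones (0.85 ± 0.10 in DC and 0.57 ± 0.09 in Si8). Early secretory Rab GTPases were 4 higher and 2 lower of 8 in DC, and 2 higher and 3 lower in Si8. Rab6b (-3.19 ± 0.33 in DC and -1.42 ± 0.33 in Si8) and Rab30 (-3.04 ± 0.42 in DC and -2.07 ± 0.25 in Si8) were lowest, and Rab2a (0.77 ± 0.08 in DC and 0.61 ± 0.08 in Si8) and Rab1a (0.49 ± 0.07 in DC and 0.33 ± 0.07 in Si8) highest.

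Other SNAREs and their partners were 6 higher and 0 lower of 10 in DC, from Stx18 (0.30 ± 0.08) and Gosr1 (0.43 ± 0.07) to Scfd1 (1.00 ± 0.09) and Scfd2 (1.16 ± 0.10). In Si8 they were 4 higher and 1 lower, from Vti1b (-0.20 ± 0.07) and Stx18 (0.33 ± 0.08) to Scfd2 (0.66 ± 0.10) and Bet1l (0.82 ± 0.10). Of all genes tested, 27.8% were higher and 27.9% lower in DC, and 33.1% were higher and 31.8% lower in Si8. The Si8 share of these SNARE genes that were higher, 40%, was thus near that of all genes. Other cargo receptors and p24 genes were 4 higher and 3 lower of 13 in DC, from Cnih4 (-1.05 ± 0.09) and Tmed8 (-0.85 ± 0.19) to Tmed4 (0.83 ± 0.07) and Ergic1 (1.98 ± 0.09), which cycles between the ER and the Golgi. In Si8 they were 3 higher and 5 lower, from Tmed8 (-1.04 ± 0.20) and Lman2l (-0.52 ± 0.12) to Ergic1 (2.37 ± 0.09) and the p24 gene Tmed6 (3.28 ± 0.23), which was not called in DC (-0.10 ± 0.34, adjusted p = 0.825). Tmed6 had 14 to 22 counts in each DC library and 313, 521, 343 and 679 in the Si8 goblet libraries. The Paneth marker Lyz1 ranked these libraries in the same order, with 185981, 388672, 228425 and 550023 counts. The part of Paneth cells in the Tmed6 change was not tested.

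Of 6 transcription factors known to drive secretory pathway genes, 5 were higher and 1 lower in each region. Of all genes tested, 27.8% were higher and 27.9% lower in DC, and 33.1% were higher and 31.8% lower in Si8. Xbp1 rose with changes of 1.81 ± 0.08 (adjusted p = 7.3e-13) in DC and 0.87 ± 0.08 (adjusted p = 2.2e-08) in Si8. Creb3l4 rose with changes of 5.41 ± 0.24 (adjusted p = 6.2e-12) in DC and 5.41 ± 0.24 (adjusted p = 6.7e-12) in Si8, and Creb3l1 with changes of 1.89 ± 0.13 (adjusted p = 1.8e-10) in DC and 4.31 ± 0.14 (adjusted p = 1.4e-14) in Si8. Atf6 and Creb3l2 also rose in both, by 0.43 ± 0.07 and 0.73 ± 0.19 in DC and by 0.36 ± 0.07 and 1.46 ± 0.17 in Si8. The factor that was lower, Creb3l3, known from liver and intestinal lipid metabolism, had -5.64 ± 0.66 (adjusted p = 2.1e-06) in DC and -4.48 ± 0.32 (adjusted p = 5.6e-09) in Si8.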

How the data were processed

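Total RNA of 16 sorted mouse epithelial samples was sequenced from both ends as stranded, ribosome-depleted libraries, per the labels' protocols. The authors deposited whole read counts per gene in 1 table per region, each of 46882 entries, and these counts were used. A further deposited table of normalized values was not used. The submitters' processing notes list STAR 2.4.0f, HTSeq 0.6.1p1, FastQC 0.11.2, the genome build mm10 and DESeq2 1.14. The strand setting of the counting is not given in the sources used here, so reads of Arf4, Copa, Copg2, Golga2, Gorasp1, Gorasp2, Kdelr1, Kdelr3, Preb, Surf4 and Tmed5 cannot be told apart from those of a protein-coding gene on the opposite strand that overlaps each of them. 4 entries with a repeated symbol were left out, which left 46878 genes. A further 23 symbols read as dates and none of them is named.

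Groups came from the labels. The test was edgeR 4.0.16 (R 4.3.3), with filterByExpr on the groups, scaling by TMM, 1 fit of 4 group means without covariates and robust quasi-likelihood F tests for 5 contrasts, with Benjamini-Hochberg adjustment over 16001 genes. All 49 genes passed the filter. Each SE was obtained by dividing the size of the log2 fold change by the root of its F value. No 2 libraries of a group agreed within sampling noise, since their chi-square per degree of freedom was at least 4.56. Paralogue ratios are log2 of CPM + 0.5 of each gene and were compared by exact two-sided permutation over libraries. Levels of different genes were compared per kilobase of the union of exons of GENCODE M21 (GRCm38), or of the longest transcript. Near copies were found by blastn at 95% identity over 200 bp or more.

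Full values by library are given for genes called in both goblet contrasts with a log2 fold change of at least 1 in either, called in both with opposite signs, or called with a difference of effects of at least 1, and for both genes of a paralogue pair whose ratio differed by at least 1 without overlap. That gave 33 genes, and the others are given by range or change. Of each further list the 2 highest and 2 lowest called changes are named, except 1 gene that is not reported here. The genes and lists were chosen with earlier results of these data known. Alternatives were RLE factors, total counts only, DESeq2 1.42.0, no filter, the regions fitted apart, mitochondrially encoded genes left out, each library left out, a pseudocount of 2 and another transcript length. Depth sets the precision of low genes: Copz2 outside goblet cells rests on 25 counts in DC and 31 in Si8.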

Additional observations from a re-analysis of the deposited data

Results flagged for a closer look

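A single library stood apart from the other 3 of its group by Dixon's criterion in 8 of the 196 groups of 4 values (49 genes in 4 groups), where chance gives about 1 in 20. In DC goblet cells these were Sec22b in replicate 2 (87.4 CPM, above the others), Gbf1 in replicate 3 (136 CPM, above), Copb1 in replicate 3 (318 CPM, below), Copg2 in replicate 3 (65.3 CPM, below) and Tmed10 in replicate 4 (130.2 CPM, below). In Si8 goblet cells Sec24b in replicate 1 was below the others at 31.7 CPM. In Si8 other cells Sec23b in replicate 1 was above the others at 116 CPM, and Gorasp1 in replicate 2 at 15.6 CPM.

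The goblet effect differed between DC and Si8 by a test of the difference itself for 33 genes. It was larger in DC, in log2 units, for Tfg (1.53), Lman1 (1.46), Sec24a (1.43), Sec24d (1.18), Sec16b (1.10), Surf4 (1.04), Mia3 (0.97), Sec22b (0.94), Sec31a (0.82), Sar1b (0.79), Sec16a (0.74), Copb2 (0.70), Sec24c (0.66), Kdelr2 (0.63), Mcfd2 (0.61) and Copa (0.59). It was also larger in DC for Preb (0.58), Copz1 (0.58), Copg1 (0.56), Cope (0.56), Lman2 (0.55), Uso1 (0.54), Bet1 (0.53), Gbf1 (0.52), Kdelr1 (0.50), Gorasp2 (0.49), Tmed7 (0.42), Arf1 (0.40), Copb1 (0.38), Stx5a (0.36), Sec23b (0.34) and Arcn1 (0.32). It was smaller in DC for Kdelr3 (-0.67).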

How the results depend on the processing

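In goblet against other cells, over RLE factors, total counts only, DESeq2, no filter, the regions fitted apart and mitochondrially encoded genes left out, 43 to 44 of the 49 were higher in DC and 33 in Si8, and 2 were lower in DC and 8 to 9 in Si8. Leaving out each library gave 42 to 43 higher and 2 lower in DC, and 32 to 34 higher and 8 to 9 lower in Si8. The changes of at least 1 in DC ranged from 16 to 22 with a library left out and from 17 to 24 under the other settings.

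The region contrasts depended on the scaling. Between DC goblet and Si8 goblet cells, total counts only gave 25 higher and 5 lower in place of 14 and 20, and no filter gave 9 higher. Between DC other and Si8 other cells, total counts only gave 11 higher and DESeq2 gave 4, in place of 7. With total counts only the median of all genes moved to 0.13 in DC goblet against DC other cells, 0.32 between goblet cells and 0.27 between other cells. Under that scaling the log2 fold change of some genes changed sign. Between DC goblet and Si8 goblet cells these included Sec24d (0.12), Sec31a (0.11), Cope (0.07), Copg1 (0.023), Copz1 (0.092), Arf1 (0.17), Lman2 (0.003), Tmed10 (0.23), Surf4 (0.23) and Golga2 (0.083). Between DC other and Si8 other cells they included Kdelr1 (0.021), Tmed7 (0.008), Tmed10 (0.039) and Stx5a (0.26). Neither list holds every gene whose sign changed.

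Genes with a goblet effect called smaller in DC were 1 to 2 when a library was left out, and 2 without the mitochondrially encoded genes. The cause was not tested. Of the 60 ratio differences, 7 moved by more than the spread with 2 CPM added, all of Copz2 to Copz1, Kdelr3 to Kdelr2 or Sec31b to Sec31a, and 102 of 124 shares per kilobase moved with the longest transcript as the length. No paired analysis was possible because the labels give no replicate numbers that groups share.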
